A study of Mus musculus with 30 samples.

Results

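The samples compared are retinal pigment epithelium (RPE) of 5 mice killed at zeitgeber time 0 (ZT0, 7 h by the clock) and of 5 other mice killed at ZT19 (2 h by the clock). They are 10 of the 30 samples of a day-night RNA sequencing series with 5 mice at each of 6 times, and were picked by time label alone. ZT0 is lights-on by convention, so the comparison runs across the last hours of the night. All 10 mice were untreated wild-type C57BL/6 males aged 10 to 13 weeks, and each gave 1 eye, 3 left and 2 right at ZT0 and 1 left and 4 right at ZT19. After the front of the eye and the retina were taken away, brown clumps of RPE were lifted with forceps from an eyecup that still held choroid and sclera, and no sorting step is described. Of 51904 genes in the table, 16741 reached 1 FPKM (fragments per kilobase of transcript and per M mapped fragments) in at least 5 of the 30 samples and were tested.

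The RPE is a single sheet of pigmented cells between the photoreceptors and the choroid. It turns all-trans retinol back into the 11-cis chromophore of the visual pigments, swallows shed outer segment tips in a burst after lights-on, carries ions, lactate and water toward the choroid, and secretes factors to both sides. Its cells in the adult mouse eye rarely divide. It holds a circadian clock, in which BMAL1 with CLOCK or NPAS2 drives Period, Cryptochrome, REV-ERB and output genes that feed back on it.

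Steps of the low FPKM values put the depth of a sample at 12.5 to 19.6 M reads, and 16723 to 19374 genes were above 0. Pearson r across genes had a median of 0.883 between mice of the same time and 0.867 between mice of different times. RPE markers were abundant in all 10 samples: Rpe65, the isomerase of the visual cycle, had 492 to 953 FPKM at ZT0 and 1120 to 1630 FPKM at ZT19. Best1, the RPE chloride channel bestrophin, was near 0, with 0 to 1.01 FPKM at ZT0 and 0 to 2.15 FPKM at ZT19. The samples also held other eye tissues. The corneal keratin gene Krt12 had 2130 to 3390 FPKM at ZT0 and 3.42 to 888 FPKM at ZT19, and the fast muscle light chain gene Mylpf 1100 to 2090 FPKM at ZT0 and 2230 to 9850 FPKM at ZT19. Gnat1, the rod transducin gene, ranged from 7.76 to 2140 FPKM at ZT0 and from 26.4 to 1360 FPKM at ZT19.

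At ZT0 the samples had more transcript of stratified surface epithelium, of dividing cells, and of single stress and sterol genes, and, on the deposited scale, less of muscle and of the visual cycle. In limma's moderated test on log2(FPKM + 1), 311 of 16741 genes (1.86%) passed an adjusted p of 0.05, 255 of them higher at ZT0 (1.52%) and 56 lower (0.335%). At an unadjusted p below 0.05, 1370 genes were higher (8.18%) and 1167 lower (6.97%). All 5 ZT0 values lay above all 5 ZT19 values for 501 genes (2.99%) and below them for 311 (1.86%). The count of calls moved with the mice and the model. With any 1 mouse left out it was 97 to 280 higher and 6 to 76 lower, the lowest being without ZT0 replicate 3. The higher count stayed within 1.5 times of 255 only without ZT0 replicate 5 (280). With the eye side in the fit it was 94 and 12, and with the spread taken over all 30 samples it was 6 and 1.

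Of the 35 gene lists, surface epithelium, the stratified lining of cornea and conjunctiva, held the most called genes. Of 17 tested marker genes 12 rose, 15 were higher at an unadjusted p below 0.05 in limma and 1 was lower. A negative difference was found for 2 members, the lowest at -0.53. The median log2 difference of the list was 1.84, against -0.02 for all genes. With any 1 mouse left out 7 to 11 of its genes passed, with the fewest again without ZT0 replicate 3, 8 with the eye as a term and 0 with the spread of all 30 samples. Krt5, a basal keratin gene (chromosome 15, 101707070 to 101712898, GRCm38), had 3040, 2280, 2270, 1770 and 1420 FPKM at ZT0 and 576, 537, 261, 565 and 463 FPKM at ZT19. Every ZT0 mouse was above every ZT19 mouse, a 4.51-fold difference (log2 2.17 ± 0.26 SE, adjusted p = 0.00479). Upk1b, a uroplakin of the apical membrane, had 175 to 363 FPKM at ZT0 and 68.0 to 80.0 FPKM at ZT19 (log2 1.70 ± 0.19, adjusted p = 0.00346). Perp, a desmosomal p53 target, had 393 to 747 FPKM at ZT0 and 144 to 188 FPKM at ZT19 (log2 1.59 ± 0.18, adjusted p = 0.00346). The corneal aldehyde dehydrogenase gene Aldh3a1 averaged 1930 ± 332 FPKM at ZT0 and 423 ± 231 FPKM at ZT19 (SD, n = 5 each). Krt12 itself did not pass (log2 4.46 ± 1.13, adjusted p = 0.0732), although its groups did not overlap, and its ZT19 values spread from 3.42 to 888 FPKM.

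Several other top genes of the comparison, among them Slurp1, Aqp5 and Adh7, are known from the same kind of epithelium. Slurp1, a secreted Ly6 protein of the ocular surface, averaged 431 ± 118 FPKM at ZT0 and 32.2 ± 26.8 FPKM at ZT19. The difference in mean log2(FPKM + 1) was 18.0-fold (adjusted p = 0.00675). Aqp5, a water channel of cornea and glands, averaged 701 ± 136 and 108 ± 72.4 FPKM at ZT0 and ZT19 (adjusted p = 0.00675). Adh7, a retinol-oxidising alcohol dehydrogenase of surface epithelia, averaged 378 ± 91.0 FPKM at ZT0 and 95.7 ± 18.4 FPKM at ZT19 (log2 1.96 ± 0.21, adjusted p = 0.00346). Ly6g6c, Apol7a, Tmprss11a, Tmprss11d, Slc4a11 and the hemidesmosome collagen gene Col17a1 rose by 2.65 to 3.20 on the log2 scale, as did 2610528A11Rik. Mal2, Fgfbp1, Upk3bl, the interferon-stimulated gene Ifi202b, and Calml3 and Sfn, both already counted in the surface epithelium list, rose by 1.56 to 2.35. Which tissue carried the transcripts of these genes was not tested. These calls held with any 1 mouse left out for all of these genes except Col17a1 (5 of 10 fits) and Slc4a11 (1 of 10).

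The 3 largest differences among called genes belonged to predicted transcripts. Gm38079 had 0, 134, 451, 82.1 and 159 FPKM and Gm22426 126, 167, 103, 0 and 95.0 FPKM at ZT0, and both were listed at 0 in all ZT19 samples. Gm10238 had 7.79 to 41.4 FPKM at ZT0 and was listed at 0 in 4 of 5 ZT19 samples (adjusted p = 0.00229). Differences against values of 0 depend on the pseudocount, and the first pair of these calls held in 1 of 10 fits with a mouse left out.

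The mean log2(FPKM + 1) of the surface epithelium list separated the groups completely, with 8.36 to 9.32 at ZT0 and 6.33 to 7.16 at ZT19. With this score as a term, 0 genes passed limma's test and 1087 (6.49%) had p below 0.05 before adjustment. The 255 higher genes had a median log2 difference of 0.58 with the term and 1.73 without it, a median SE of 0.83 with it and 0.30 without it, and 198 of them kept their sign. The other 57 turned negative, among them Col17a1, Slc4a11, Aldh3a1, Fosl2 and Hspb1. Of the 56 lower genes 55 kept their sign, with a median of -0.96 with the term and -1.23 without it. Because the score and the time separate the same mice, the amount of surface epithelium and the time of day cannot be told apart in these 10 samples. In bulk RNA, fewer cells of a type and less RNA per cell cannot be told apart either.

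**Figure D1:**
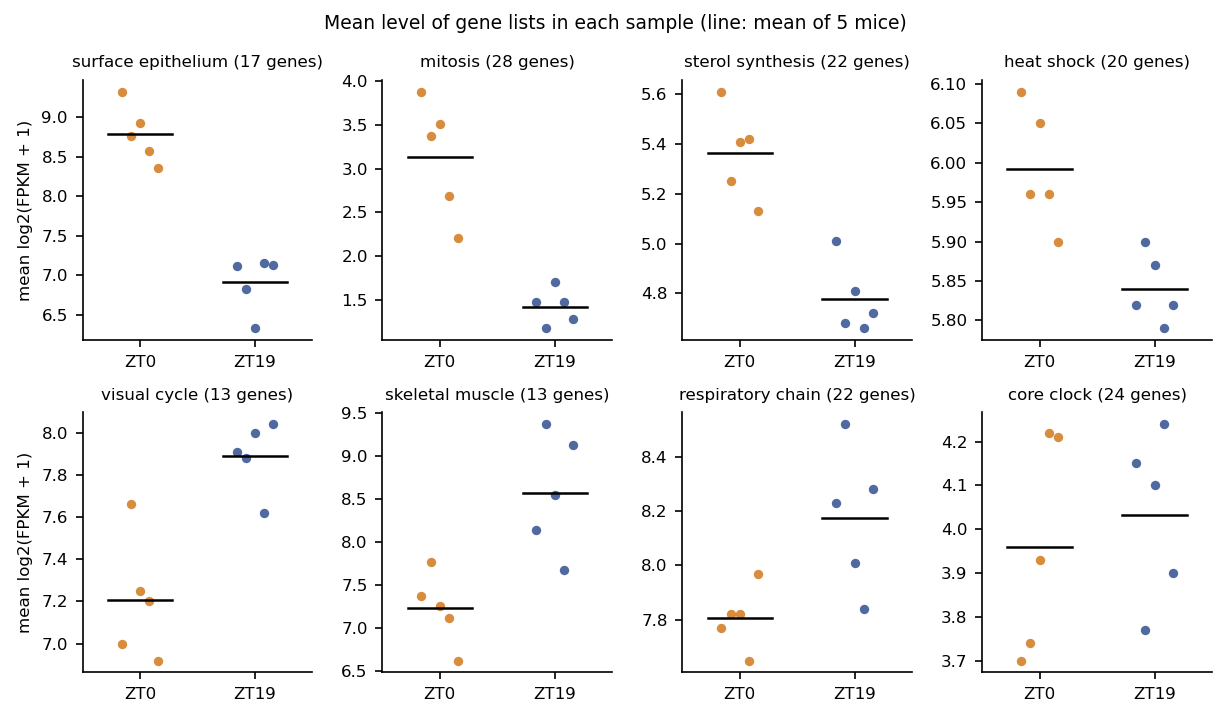
Mean log2(FPKM + 1) of 8 gene lists in each sample, ZT0 left (orange) and ZT19 right (blue), with the mean of 5 mice as a line. The surface epithelium, mitosis and sterol synthesis lists lie higher in all ZT0 mice than in any ZT19 mouse. The visual cycle list lies lower at ZT0 (6.92 to 7.66) than at ZT19 (7.62 to 8.04), with 1 ZT0 mouse in the ZT19 range, and the core clock list overlaps.

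Genes of mitosis were higher at ZT0. All 28 list members had a positive difference, 21 at an unadjusted p below 0.05, 5 passed after adjustment, and the median difference was 1.73. With 1 mouse left out 2 to 11 passed, the 11 without ZT0 replicate 5, and 2 did without any 1 of ZT0 replicates 1, 2 and 3 and ZT19 replicate 2. With the eye as a term or the spread of all 30 samples 2 passed. Pbk, a mitotic kinase (chromosome 14, 65805837 to 65817822), had the smallest p of all genes. It had 10.6, 10.3, 19.8, 18.6 and 7.63 FPKM at ZT0 and was listed at 0 in all 5 ZT19 samples (log2(FPKM + 1) difference 3.76 ± 0.31, adjusted p = 0.000968, at most 0.0075 with any 1 mouse left out). Plk1, the polo-like kinase of mitotic entry, had 11.7, 3.24, 10.0, 8.43 and 5.82 FPKM at ZT0 and 1.40, 0, 0.595, 1.37 and 0.147 FPKM at ZT19 (log2 2.37 ± 0.39, adjusted p = 0.0136). Ube2c, the E2 enzyme of the anaphase-promoting complex, had 11.3 to 31.7 FPKM at ZT0 and 1.79 to 8.61 FPKM at ZT19 (adjusted p = 0.0185). Birc5 (survivin) and Cenpe, a kinetochore motor, also passed. Off the list, Kif15, a spindle kinesin, had 8.59 to 33.7 FPKM at ZT0 and was listed at 0 in 4 of 5 ZT19 samples (adjusted p = 0.00824), and Cdca3, a mitotic entry factor, rose by 2.78. No ZT0 value of these 7 genes reached down to the ZT19 values, but Cdk1, the mitotic kinase itself, overlapped: 11.6 to 59.7 FPKM at ZT0 and 0.482 to 23.6 FPKM at ZT19 (adjusted p = 0.219).

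Among 15 DNA replication genes only Rrm2, a subunit of ribonucleotide reductase, passed. Its values were 9.42 to 29.8 FPKM at ZT0 and 1.64 to 3.97 FPKM at ZT19 (log2 2.19 ± 0.34, adjusted p = 0.0118), and the list median was 0.59. Of 15 regulators of the G1 phase 0 passed in limma, and 3 were higher at an unadjusted p below 0.05. Surface epithelium renews itself by division, and the mitosis score was 2.20 to 3.88 at ZT0 and 1.17 to 1.70 at ZT19, beside the surface epithelium scores given above. The part of that tissue in the mitosis difference was not tested apart from the fit with its score, in which the median of the mitosis list was 0.26 and 1 member was higher and 1 lower by unadjusted p below 0.05.

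Most promoters of the mitosis genes share a sequence that the choice of the list did not use. The cell cycle homology region, TTTGAA on either strand, is the element through which the DREAM and MuvB complexes hold mitotic genes silent outside division. It lies within 250 bases before to 50 bases after the annotated start in 17 of the 23 list genes found in RefSeq (73.9%), against 20.2% of all 27025 genes of that table and 14.5% of the 12227 tested genes found. Among the called genes it was present in 37 of 175 higher (21.1%) and 4 of 41 lower ones (9.76%). A match describes letters, not a bound site. The windows below run from 100 bases before to 50 bases after the start on GRCm38.p6, 5′ to 3′ on the gene's strand, with the matches in capitals. They are those of Plk1 (chr7:122159335-122159484, plus strand), Ube2c (chr2:164769829-164769978, plus strand), Cdc20, which encodes an activator of the anaphase-promoting complex (chr4:118437294-118437443, minus strand), and Cdk1 (chr10:69352863-69353012, minus strand). Plk1 and Ube2c passed the test, and Cdc20 and Cdk1 did not.
Plk1: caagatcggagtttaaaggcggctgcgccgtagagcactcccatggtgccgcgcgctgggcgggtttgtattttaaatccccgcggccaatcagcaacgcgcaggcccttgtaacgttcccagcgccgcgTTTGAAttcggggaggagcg
Ube2c: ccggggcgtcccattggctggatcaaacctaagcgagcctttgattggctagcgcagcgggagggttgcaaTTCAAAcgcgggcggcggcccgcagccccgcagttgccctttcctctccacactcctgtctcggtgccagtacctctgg
Cdc20: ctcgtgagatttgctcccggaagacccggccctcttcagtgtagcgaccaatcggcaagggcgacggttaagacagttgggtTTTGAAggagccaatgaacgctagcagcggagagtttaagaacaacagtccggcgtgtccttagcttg
Cdk1: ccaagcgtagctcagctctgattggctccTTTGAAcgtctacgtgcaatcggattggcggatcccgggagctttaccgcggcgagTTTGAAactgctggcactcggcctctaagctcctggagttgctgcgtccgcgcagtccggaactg
The match starts at position 30 in Plk1, -29 in Ube2c, -18 in Cdc20, and -71 and -15 in Cdk1, counted from the annotated start at 0.

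Single genes of sterol supply, of heat shock and of the AP-1 family rose as well. Of 22 sterol synthesis genes 2 passed, 11 were higher and 0 lower by unadjusted p below 0.05 in limma, and the median difference was 0.62. Sqle, the squalene epoxidase, had 50.7 to 63.7 FPKM at ZT0 and 28.9 to 44.5 FPKM at ZT19, without overlap (log2 0.65 ± 0.17, adjusted p = 0.0781). Srebf2, the transcription factor that switches the pathway on, had 36.9 to 63.5 FPKM at ZT0 and 20.1 to 36.2 FPKM at ZT19 (log2 0.68 ± 0.21, adjusted p = 0.139). Fdps, the farnesyl diphosphate synthase, had 83.2 to 131 FPKM at ZT0 and 37.8 to 84.2 FPKM at ZT19 (log2 1.03 ± 0.24, adjusted p = 0.057). These 3 genes did not pass, and the difference of Sqle and Srebf2 was -0.18 and -0.15 with the surface epithelium score as a term.

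Of 20 heat shock genes 2 passed, and the list median was 0.00. Hspa1b, an inducible Hsp70 gene, had 69.8, 53.8, 50.1, 44.9 and 32.9 FPKM at ZT0 and 16.7, 17.1, 12.3, 14.3 and 13.3 FPKM at ZT19. The groups were far apart (3.19-fold, log2 1.67 ± 0.21, adjusted p = 0.00537) and the call held with any 1 mouse left out. Its near-identical neighbour Hspa1a had 8.75 to 24.1 FPKM at ZT0 and 4.75 to 9.01 FPKM at ZT19 (adjusted p = 0.0571), and how the authors divided reads between the pair is not given in the sources used here. Hspb1, a small heat shock protein gene, rose 1.64-fold (adjusted p = 0.0497), a call that no fit with a mouse left out kept. The abundant constitutive members Hspa8 (log2 -0.41) and Hsp90ab1 (log2 0.04) did not pass. Of 14 immediate early genes Fosl2, an AP-1 subunit, rose to 17.7 to 36.6 FPKM at ZT0, against 8.04 to 12.6 FPKM at ZT19 (adjusted p = 0.0197). Fos had 7.93 to 27.9 FPKM at ZT0 and 2.91 to 23.7 FPKM at ZT19 (adjusted p = 0.381).

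**Figure D2:**
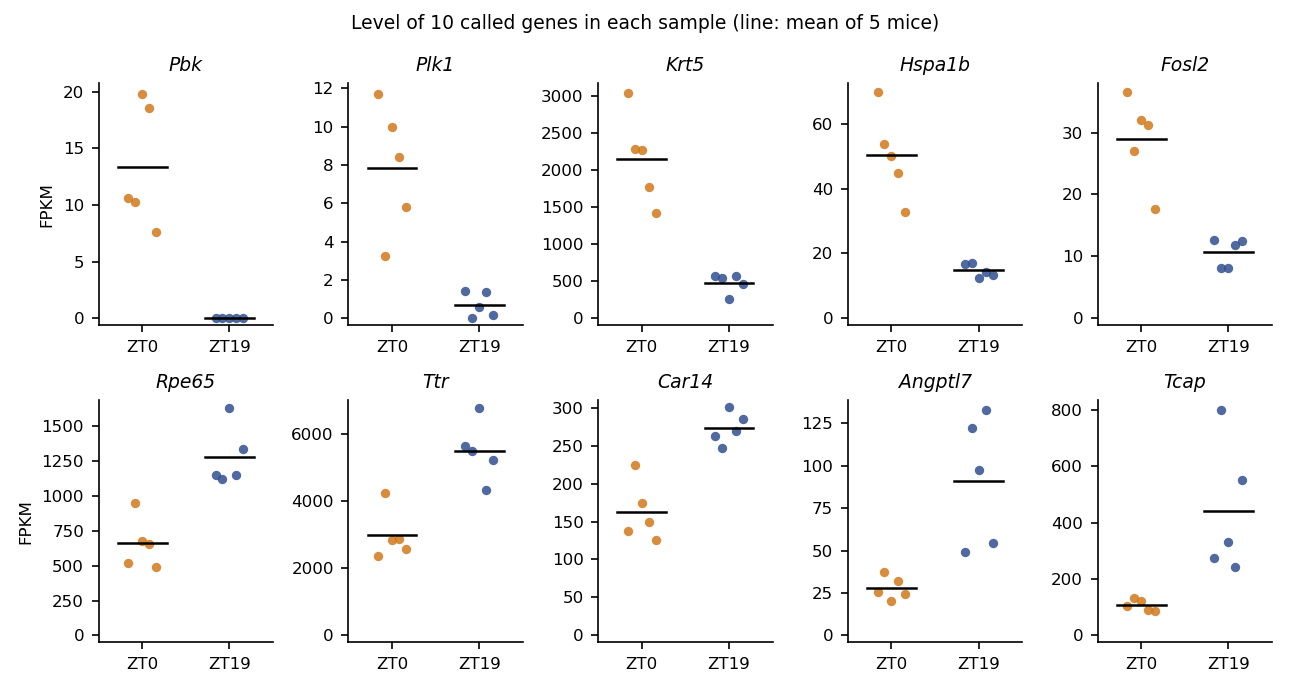
FPKM of 10 called genes in each sample, ZT0 left (orange) and ZT19 right (blue), with the mean of 5 mice as a line and every axis from 0. Pbk, Plk1, Krt5, Hspa1b and Fosl2 are higher in every ZT0 mouse than in any ZT19 mouse, and Rpe65, Ttr, Car14, Angptl7 and Tcap are lower in every one. Scaled to the visual cycle list, Rpe65 and Ttr (both members of that list), Car14 and Angptl7 no longer pass.

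Genes of the RPE itself were lower at ZT0 on the deposited scale. Of 13 visual cycle genes 11 were lower at an unadjusted p below 0.05, 8 without overlap, 2 passed, and the median was -0.80. With 1 mouse left out 0 to 6 passed in limma, the 6 without ZT0 replicate 2. Without ZT0 replicate 5 or ZT19 replicate 4 it was 1, and 0 without any other mouse, with the eye as a term or with all 30 samples. The 11 lower at an unadjusted p below 0.05 became 0 with the muscle score as a term and 2 with the surface epithelium score. Rpe65 (chromosome 3, 159599175 to 159625321) had 521, 953, 679, 655 and 492 FPKM at ZT0 and 1150, 1120, 1630, 1150 and 1340 FPKM at ZT19 (log2 -0.98 ± 0.20, adjusted p = 0.0337). Ttr, the retinol carrier transthyretin, had 2360 to 4260 FPKM at ZT0 and 4340 to 6800 FPKM at ZT19 (log2 -0.90 ± 0.20, adjusted p = 0.044). With 1 mouse left out the adjusted p reached 0.0872 for Rpe65 and 0.116 for Ttr. Rgr, an RPE opsin, Lrat, which esterifies retinol, and Stra6, the retinol receptor, had log2 differences of -0.87, -0.83 and -0.76 and did not pass. Rdh5, Rdh10, Rdh11, Rlbp1, Rrh and Rbp4 had differences of -0.66 to -0.87 and did not pass either, and Bco1 had 0.70.

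Other RPE functions showed smaller differences. Among 22 channels and transporters 10 were lower and 1 higher at an unadjusted p below 0.05. Only Car14, a membrane carbonic anhydrase, passed, with 126 to 224 FPKM at ZT0 and 247 to 301 FPKM at ZT19 (adjusted p = 0.0419). With 1 mouse left out 2 of the list passed without ZT0 replicate 2, 1 without ZT19 replicate 4 and 0 otherwise. With the eye as a term or all 30 samples 0 passed. The 10 lower genes became 0 with the muscle score as a term and 2 with the surface epithelium score. Slc16a8, the RPE lactate transporter, had 148 to 291 FPKM at ZT0 and 280 to 360 FPKM at ZT19 (adjusted p = 0.0671). Of 9 transcription factors Otx2, which maintains RPE identity, fell to 79.5 to 127 FPKM at ZT0, against 149 to 206 FPKM at ZT19 (log2 -0.85 ± 0.17, adjusted p = 0.0333). With 1 mouse left out 1 of the 9 passed without ZT0 replicate 2, 4 or 5 or ZT19 replicate 4, and 0 otherwise. With the eye as a term or all 30 samples 0 passed. Pax6, also a gene of cornea and retina, had 127 to 200 FPKM at ZT0 and 21.2 to 131 FPKM at ZT19 (log2 1.23 ± 0.40, adjusted p = 0.161). Of 16 melanin and melanosome genes 0 passed in limma, with 1 higher and 3 lower by unadjusted p below 0.05, among them Mreg (log2 0.72) and Mitf (log2 -0.68). Of 17 secreted factors 8 were lower and 1 higher at an unadjusted p below 0.05, and 1 passed. With 1 mouse left out 0 or 1 of the list passed, and 0 with the eye as a term or all 30 samples. Angptl7, an angiopoietin-like protein of eye connective tissue, fell to 25.5, 37.3, 20.1, 32.3 and 24.4 FPKM at ZT0, against 49.0, 122, 97.4, 133 and 54.4 FPKM at ZT19 (log2 -1.59 ± 0.30, adjusted p = 0.026). Angptl7 was also lower at ZT2 than at ZT14 (log2 -1.87, and -1.77 without ZT14 replicate 3, a library that stands apart), in mice that the ZT0 comparison does not share.

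Part of these directions depends on what is held equal. When every sample was scaled to the same mean level of the visual cycle list, the median of all genes moved to 0.54 log2, and 2378 genes passed as higher (14.2%) and 14 as lower (0.0836%). The score of that list averaged 7.21 at ZT0 and 7.89 at ZT19, so the scaling raised the difference of nearly every gene. All 255 genes higher at ZT0 were still called, and 7 of the 56 lower ones. This outcome follows largely from that shift and is no separate support for the calls. On that scale the RPE channels and transporters had a median of 0.18, the respiratory chain 0.28 and the muscle list -0.73, so the first of these 3 lists and the second changed sign. Which scale fits these cells was not measured.

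**Figure D3:**
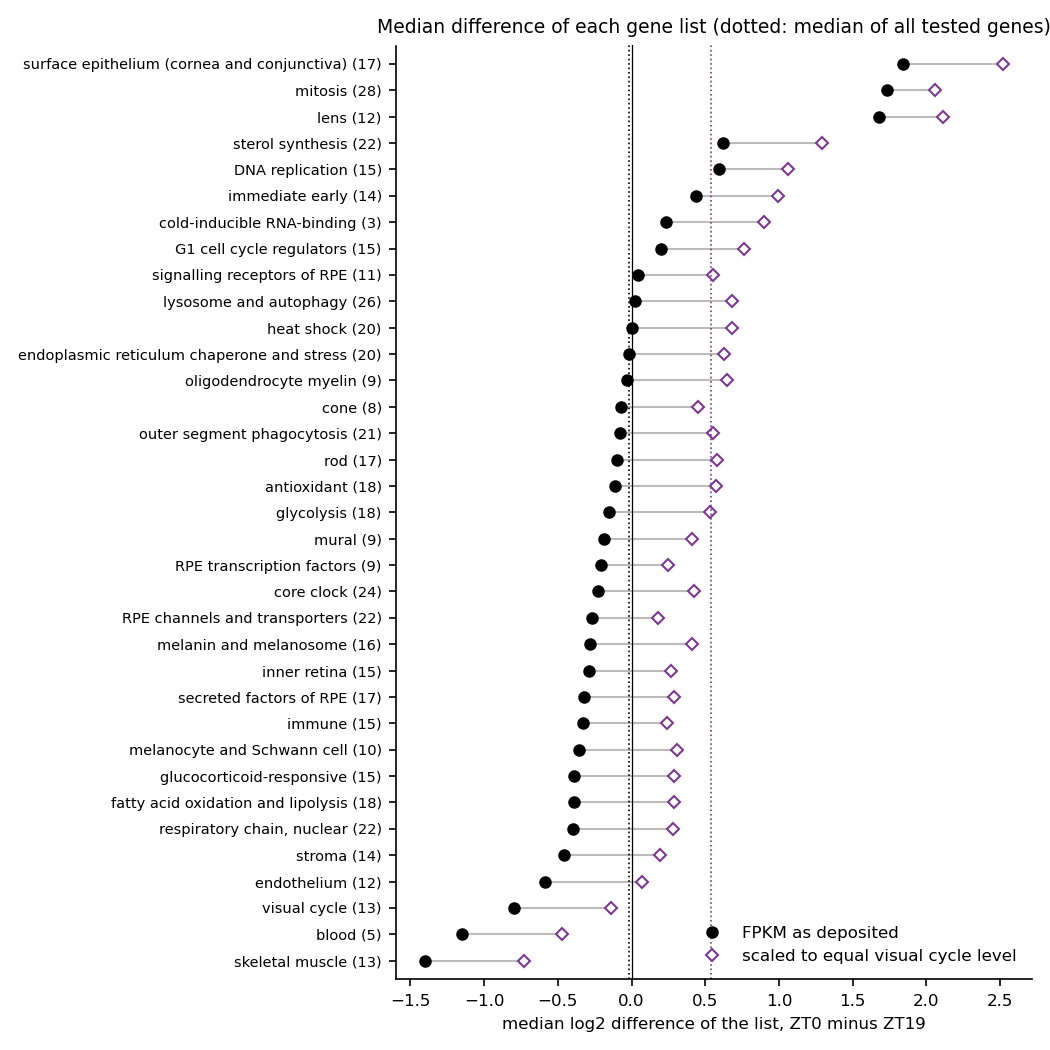
Median log2 difference (ZT0 minus ZT19) of each of the 35 gene lists, with the number of tested genes in brackets, on the deposited FPKM (filled circles) and after scaling to equal visual cycle level (open diamonds). Dotted lines mark the medians of all tested genes at -0.02 and 0.54. Surface epithelium, mitosis and lens lists lie highest and skeletal muscle and blood lowest on both scales, while lists with a deposited median of -0.59 to -0.02 change sign.

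Transcripts of skeletal muscle, the tissue that moves the globe from outside, were lower at ZT0. All 13 list genes had a negative difference, 11 at an unadjusted p below 0.05, and 4 passed (median -1.40). With 1 mouse left out 0 to 8 of the 13 passed in limma, the 8 without ZT19 replicate 4, 1 without ZT19 replicate 1 or 2, and 0 without any of the other 7 mice, with the eye as a term or with all 30 samples. Ckm, the muscle creatine kinase gene, had 553, 598, 591, 470 and 317 FPKM at ZT0 and 959, 2980, 1530, 776 and 2020 FPKM at ZT19 (log2 -1.57 ± 0.34, adjusted p = 0.044). Tcap, a sarcomere cap protein gene outside the list, had 87.6 to 133 FPKM at ZT0 and 242 to 798 FPKM at ZT19 (log2 -1.90 ± 0.31, adjusted p = 0.012). Its call held with any 1 mouse left out. Tnnt3, Mylpf, Mybphl, Mylk4, Abra and Jsrp1, all genes of striated muscle, fell by 1.54 to 2.07 on the log2 scale, and ZT19 replicate 2 was the highest sample for Ckm, Tnnt3, Mylpf and Tcap. F730043M19Rik, Myadml2, Sypl2 and Acat3 completed the 15 largest falls, at -1.65 to -2.19, and each call held in 1 of 10 fits with a mouse left out. Desmin (Des), on the mural list but also a muscle filament, fell 2.58-fold. With the muscle score as a term 1 gene passed limma's test as higher and 0 as lower, and 1865 had p below 0.05 before adjustment.

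Most energy metabolism genes had lower values at ZT0 on the deposited scale. All 22 nuclear genes of the respiratory chain had a negative difference, 11 at an unadjusted p below 0.05 (median -0.40). Cox5a, a cytochrome c oxidase subunit, fell to 177 to 234 FPKM at ZT0, against 262 to 476 FPKM at ZT19 (log2 -0.78 ± 0.17, adjusted p = 0.0426). Its difference after scaling to the visual cycle list was -0.10. It was the only call of the 22. With 1 mouse left out 2 of the list passed without ZT19 replicate 4 and 0 without any other mouse. With the eye as a term 1 passed, and with all 30 samples 0. Gpd1, the cytosolic glycerol-3-phosphate dehydrogenase, had 6.88, 7.74, 12.6, 9.32 and 9.13 FPKM at ZT0 and 45.8, 57.3, 26.8, 19.2 and 119 FPKM at ZT19 (adjusted p = 0.0272), and G0s2, an inhibitor of the lipase ATGL, fell by 1.62. Of 18 glycolysis genes and 18 genes of fatty acid oxidation and lipolysis 0 passed in limma, with 4 lower in each at an unadjusted p below 0.05. The muscle isozyme Pfkm had a log2 difference of -0.94 (adjusted p = 0.0648), and Pnpla2, which encodes ATGL, of -1.08 (adjusted p = 0.0728). The muscle score was 6.62 to 7.77 at ZT0 and 7.67 to 9.37 at ZT19. It nearly separates the same mice as the time, so a fit with this score can hardly tell the amount of muscle from the time of day. With that score as a term the respiratory chain had a median of -0.14 and 0 genes lower at an unadjusted p below 0.05 in limma. Fatty acid oxidation and lipolysis then had a median of 0.02, against -0.39 without the term, with 0 lower at that p, and glycolysis -0.50, against -0.15, with 5 lower.

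None of the 24 core clock genes passed between ZT0 and ZT19 in limma, and 2 were higher and 4 lower by unadjusted p below 0.05, beside 8.18% and 6.97% of all genes. Groups overlapped for all 24, and the list median was -0.23. Arntl, which encodes BMAL1, had 11.3, 22.4, 15.8, 22.7 and 25.4 FPKM at ZT0 and 16.2, 11.6, 12.2, 12.7 and 9.79 FPKM at ZT19 (log2 0.57 ± 0.25, adjusted p = 0.315). ZT0 replicates 1 and 3 lay within the ZT19 range and the other 3 above it. Npas2, the partner of BMAL1 in place of CLOCK, had 10.1, 4.68, 3.42, 3.03 and 3.22 FPKM at ZT0 and 0.982, 0.583, 5.26, 0.463 and 0.740 FPKM at ZT19 (log2 1.31 ± 0.46, adjusted p = 0.183), with ZT19 replicate 3 apart from its group.

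Of the repressors and outputs of the clock, more lay lower than higher at ZT0 on the deposited scale. Nr1d2, which encodes REV-ERB beta, had 14.5, 16.5, 13.3, 18.7 and 27.8 FPKM at ZT0 and 26.0, 24.2, 27.6, 27.1 and 27.4 FPKM at ZT19 (adjusted p = 0.222). Bhlhe41, the repressor DEC2, had a log2 difference of -0.59 (adjusted p = 0.243). The output factor Dbp had 38.2 to 68.7 FPKM at ZT0 and 40.7 to 81.6 FPKM at ZT19 (log2 -0.51 ± 0.23, adjusted p = 0.328). Per1, Per2 and Per3, the Period repressors, gave -0.75, -0.47 and -0.48, each with an SE of 0.36 to 0.39. Clock, Csnk1e, Nr1d1, Hlf, Ciart, Rora, Bhlhe40, Csnk1d and Nfil3 had positive differences of 0.01 to 0.66, and Cry1, Cry2, Tef, Fbxl21 and Rorb negative ones of -0.16 to -0.63. Their p values do not show that the genes were equal: SEs of 0.20 to 0.67 leave room for changes of that size. The difference of ZT2 minus ZT14 was 2.66 for Arntl and -3.71 for Per2, and 2.31 and -3.99 without ZT14 replicate 3. After scaling to the visual cycle list, 5 of the 24 passed as higher, Arntl, Clock, Npas2, Nr1d1 and Csnk1d. On that scale 14.2% of all genes passed as higher, and the median was 0.42 for the clock list and 0.54 for all genes. Nr1d2, Dbp, Bhlhe41, Per3, Tef, Cry1, Cry2 and Rorb were among the clock genes that changed sign.

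**Figure D4:**
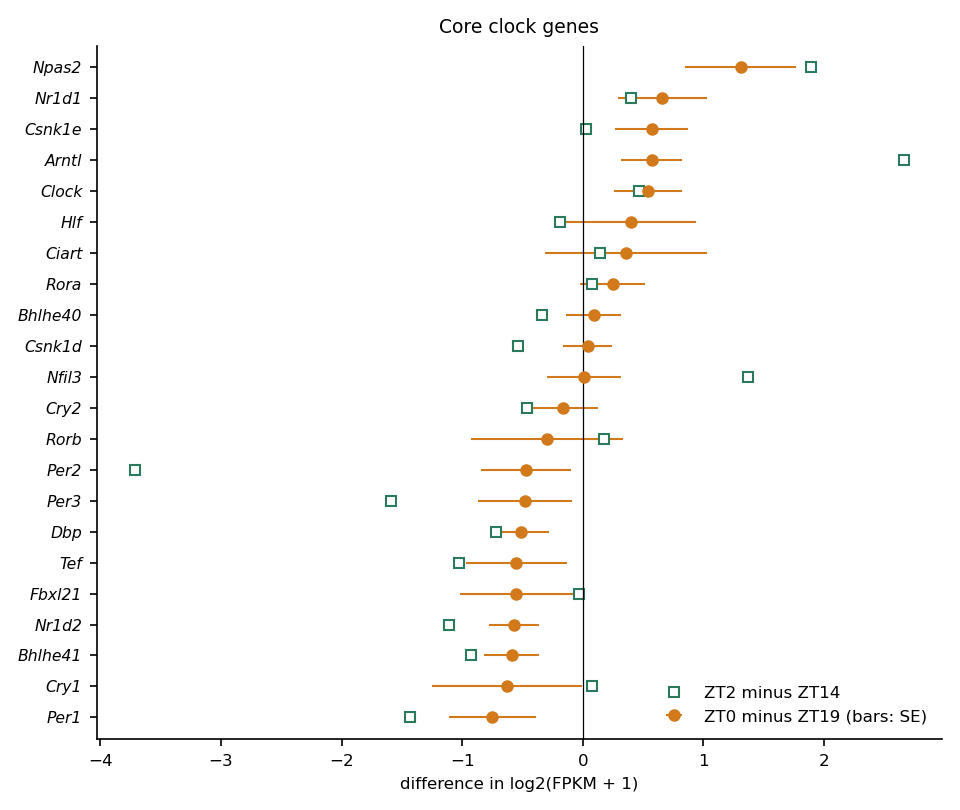
Difference in log2(FPKM + 1) of 22 core clock genes, ordered by ZT0 minus ZT19 (filled circles, bars are SE, n = 5 each), with ZT2 minus ZT14 beside it (open squares). Npas2 and Arntl lie above 0 and Nr1d2, Bhlhe41 and Per1 below it in both, with the last 3 smaller or of other sign after scaling to the visual cycle list. The widest values at ZT2 against ZT14 are those of Per2 (-3.71) and Arntl (2.66).

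Glucocorticoid-responsive genes, which follow the daily corticosterone rhythm, had a median of -0.39, and 0.29 after scaling to the visual cycle list. Of the 15, 0 passed in limma, while 3 were lower and 2 higher at an unadjusted p below 0.05. Tsc22d3, which encodes the glucocorticoid-induced leucine zipper, had 31.4, 39.6, 39.2, 39.4 and 35.5 FPKM at ZT0 and 50, 115, 75.2, 65.5 and 55.6 FPKM at ZT19 without overlap (log2 -0.89 ± 0.22, adjusted p = 0.0666). Sgk1, a kinase of ion transport, had 194 to 242 FPKM at ZT0 and 266 to 334 FPKM at ZT19 (log2 -0.39 ± 0.12, adjusted p = 0.139). The metallothionein gene Mt1 had 389 to 712 FPKM at ZT0 and 696 to 1360 FPKM at ZT19 (adjusted p = 0.121). The difference of Sgk1 was 0.29 and that of Mt1 -0.04 after scaling to the visual cycle list. The highest mean score of this list over the day was at ZT14 (5.58 ± 0.15) and the lowest at ZT0 (5.04 ± 0.09).

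The promoters of both lists were searched for elements known to control such genes. The ROR element (TAGGTCA or TGGGTCA, on either strand), at which ROR activators and REV-ERB repressors compete, lies in 2 of the 19 clock promoters found for the 24 genes (10.5%), in 6.35% of the 12227 tested genes found and in 7.35% of all genes in the RefSeq table. The E-box CACGTG, bound by BMAL1 with CLOCK, lies in 5 of 19 (26.3%), in 11.1% of the tested genes and in 8.09% of all. The glucocorticoid element GNACANNNTGTNC lies in 2 of 13 glucocorticoid-responsive promoters (15.4%), in 0.442% of the tested genes and in 0.537% of all. Each window below runs from 250 bases before to 50 bases after a start on the plus strand, with the named element in capitals: Arntl with its ROR element at position 30 (chr7:113207261-113207560), Per1 with an E-box at -166 (chr11:69098699-69098998), and Sgk1 (chr10:21993640-21993939) and Mt1 (chr8:94178839-94179138) with a glucocorticoid element at -188 and -94. The 4 matches overlap no other motif searched. None of these genes passed between ZT0 and ZT19.
Arntl: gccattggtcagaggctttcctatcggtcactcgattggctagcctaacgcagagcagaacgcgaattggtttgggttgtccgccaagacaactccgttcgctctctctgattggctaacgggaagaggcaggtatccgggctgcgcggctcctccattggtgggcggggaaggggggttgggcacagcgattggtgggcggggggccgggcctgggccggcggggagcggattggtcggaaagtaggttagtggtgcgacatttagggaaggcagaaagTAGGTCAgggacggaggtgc
Per1: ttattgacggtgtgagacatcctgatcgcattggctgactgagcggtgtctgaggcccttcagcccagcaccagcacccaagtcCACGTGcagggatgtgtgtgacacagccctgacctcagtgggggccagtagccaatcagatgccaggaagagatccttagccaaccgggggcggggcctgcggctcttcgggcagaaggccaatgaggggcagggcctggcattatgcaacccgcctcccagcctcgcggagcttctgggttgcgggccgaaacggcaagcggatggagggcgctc
Sgk1: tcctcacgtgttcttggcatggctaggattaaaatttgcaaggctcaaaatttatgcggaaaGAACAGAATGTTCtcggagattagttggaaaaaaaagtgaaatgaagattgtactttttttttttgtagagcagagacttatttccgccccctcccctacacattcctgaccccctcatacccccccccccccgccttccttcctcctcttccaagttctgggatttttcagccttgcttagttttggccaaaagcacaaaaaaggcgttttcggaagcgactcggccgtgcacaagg
Mt1: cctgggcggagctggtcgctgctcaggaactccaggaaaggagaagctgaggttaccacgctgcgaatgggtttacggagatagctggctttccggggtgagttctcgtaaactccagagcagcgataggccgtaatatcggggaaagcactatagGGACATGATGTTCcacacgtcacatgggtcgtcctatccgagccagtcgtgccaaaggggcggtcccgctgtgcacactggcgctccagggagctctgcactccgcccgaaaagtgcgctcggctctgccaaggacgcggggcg

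The remaining RPE lists gave 1 call in all. Among 21 genes of outer segment phagocytosis Anxa2, an annexin also abundant in surface epithelium, rose to 647 to 1570 FPKM at ZT0, against 309 to 447 FPKM at ZT19 (log2 1.28 ± 0.24, adjusted p = 0.026). Cd36, a scavenger receptor of RPE and vessels, had 13.6 to 30.9 FPKM at ZT0 and 32.3 to 85.1 FPKM at ZT19 (log2 -1.35 ± 0.33, adjusted p = 0.0671). Mertk, the receptor that triggers engulfment, had 7.51 to 23.6 FPKM at ZT0 and 16.9 to 24.1 FPKM at ZT19 (adjusted p = 0.37). Lysosome and autophagy (26 genes), endoplasmic reticulum chaperone (20), antioxidant (18), cold-inducible (3) and receptor (11) lists had 0 called genes in limma. In either direction 4, 0, 4, 0 and 3 of their genes had an unadjusted p below 0.05, beside 15.2% of all genes. Ctsd, the main lysosomal protease of the RPE, had 820 ± 113 FPKM at ZT0 and 1150 ± 70.6 FPKM at ZT19 (log2 -0.50 ± 0.13, adjusted p = 0.0884). The adenosine receptor gene Adora2b averaged 17.9 ± 2.92 FPKM at ZT0 and 32.5 ± 5.75 FPKM at ZT19 (adjusted p = 0.0574).

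Markers of other tissues differed beside these results. Endothelium had 6 of 12 genes lower at an unadjusted p below 0.05 (median -0.59), blood 4 of 5 (median -1.15), immune cells 4 of 15 (median -0.33) and stroma 4 of 14 (median -0.46), beside 6.97% of all genes. In stroma 1 gene was higher at that p, and in these 4 lists 0 genes passed in limma. With the muscle score as a term the lower counts became 0, 0, 1 and 0. Haemoglobin Hbb-bs had 236 to 492 FPKM at ZT0 and 310 to 1200 FPKM at ZT19. Rod genes overlapped widely, with scores of 2.47 to 9.24 at ZT0 and 3.46 to 8.34 at ZT19, and 0 of 17 had an unadjusted p below 0.05. The same held for 8 cone genes. Inner retina (15 genes), oligodendrocyte myelin (9), melanocyte and Schwann cell (10) and lens (12) lists had 3, 1, 2 and 1 genes at that level in either direction, beside 15.2% of all genes. The lens median of 1.68 came with scores of 0.60 to 6.29 at ZT0 and 0.57 to 2.92 at ZT19. The part of these tissues in the called genes was not tested beyond the fits with a rod score (331 higher, 119 lower), a myelin score (244 and 48) and a stroma score (100 and 6).

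Over the day ZT0 and ZT19 stood at the ends of several lists. The mitosis score was 3.13 ± 0.67 at ZT0, 2.77 ± 0.29 at ZT2, 2.13 ± 0.70 at ZT4, 2.09 ± 0.36 at ZT9, 1.68 ± 0.49 at ZT14 and 1.42 ± 0.20 at ZT19 (mean ± SD of log2(FPKM + 1), n = 5). The surface epithelium score was 8.79 ± 0.37, 8.66 ± 0.28, 7.76 ± 1.23, 8.24 ± 0.98, 8.01 ± 0.70 and 6.92 ± 0.35 at the same times. The visual cycle score was lowest at ZT0 (7.21 ± 0.29) and highest at ZT19 (7.89 ± 0.16), as was the muscle score (7.23 ± 0.42 and 8.57 ± 0.70). ZT14 replicate 3 stands apart from the other 29 samples, with 12754 genes above 0 and 537 tested genes listed at 0 whose median reached 10 FPKM, and without it the ZT14 means were 1.87 ± 0.25 for mitosis, 8.22 ± 0.60 for surface epithelium and 7.25 ± 0.43 for muscle (SD, n = 4). The 10 mice of ZT2 and ZT14 allow a comparison that shares no sample. There 1 gene passed (0.00597%), 0 without ZT14 replicate 3, while limma gave 1066 genes (6.37%) an unadjusted p under 0.05, 3.77% higher at ZT2 and 2.6% lower. Of the genes called here, 239 of the 255 higher at ZT0 (93.7%) were higher at ZT2 than at ZT14, against 55.2% of all genes. Of the 255, 34 were higher at ZT2 and 0 lower at that p in limma. Of the 56 lower genes 46 (82.1%) were lower at ZT2, against 44.5% of all, 8 of them at that p. Without ZT14 replicate 3 the counts were 229 of 255 (89.8%, against 51.8% of all genes) and 33 of 56 (58.9%, against 47.9%), so the share of the lower genes came closer to that of all genes. The surface epithelium list differed in the same direction there (median 0.67, and 0.43 without that sample), and genes of 1 tissue do not move independently of each other.

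**Figure D5:**
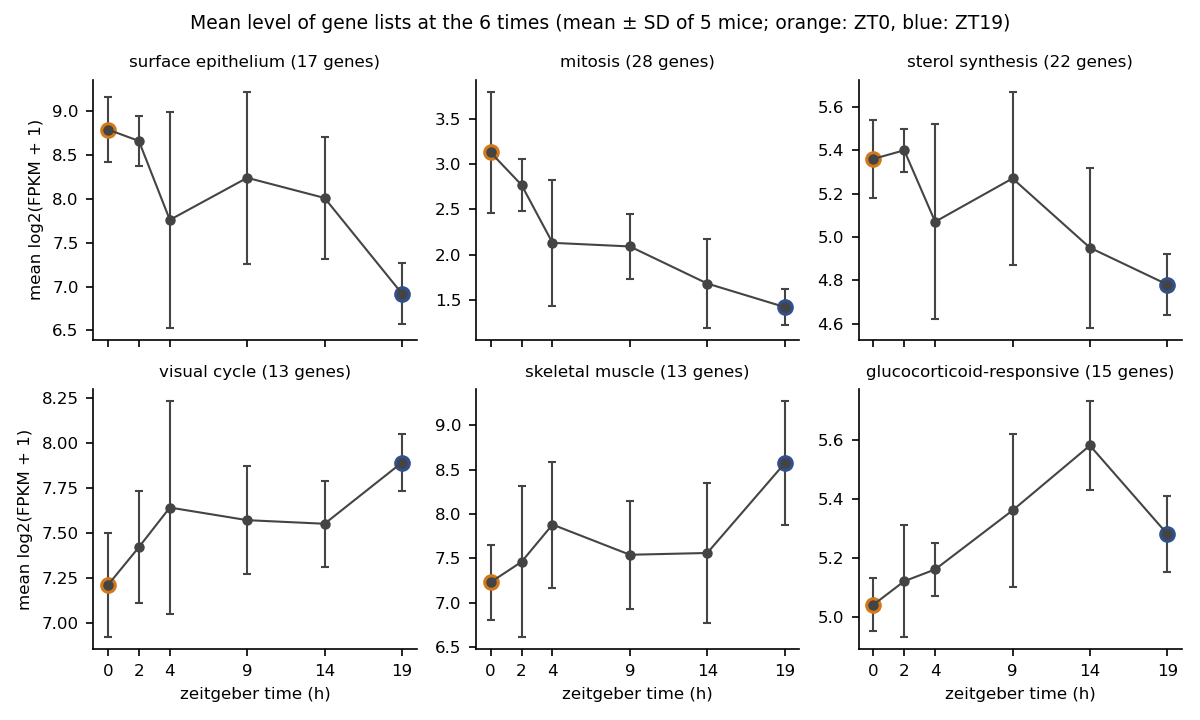
Mean log2(FPKM + 1) of 6 gene lists at the 6 zeitgeber times (mean ± SD of 5 mice), with ZT0 in orange and ZT19 in blue. Mitosis is highest at ZT0 (3.13) and lowest at ZT19 (1.42), the visual cycle and muscle lists the reverse on the deposited scale, and the glucocorticoid-responsive list peaks at ZT14 (5.58).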

How the data were processed

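The authors deposited 1 table of FPKM per gene for 30 samples, written with decimal commas. Reads were single 75 bp reads, with a stated mean of 20 M per sample per the labels. Mouse build mm10, the aligner STAR, Cufflinks and DESeq2 are listed, without versions, per the submitters' processing notes, and the gene annotation, strand setting and handling of shared reads are not given in the sources used here. No counts were used, so depth was estimated from the steps of low FPKM values. FPKM is relative to each library's total, so a tissue that takes a larger share lowers all other genes.

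From the deposited FPKM, log2(FPKM + 1) was computed for genes of at least 1 FPKM in at least 5 of 30 samples and fitted with limma 3.58.1 (R 4.3.3, variance trend) on the 10 ZT0 and ZT19 samples alone, adjusted by Benjamini-Hochberg over 16741 genes at 0.05. The smallest unadjusted p of an exact permutation test over 252 splits would be 0.00794. The scripts were tested on simulated data. Each sample is 1 mouse by its labels. Differences are ZT0 minus ZT19, and SE is that of the fit. Fold values are the difference in mean log2(FPKM + 1) taken back from the log scale, not the ratio of mean FPKM.

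Named genes were the 15 largest rises and 15 largest falls among the calls, the 10 smallest p outside these, all core clock genes, and up to 3 members of each other list with the smallest p. Other genes named (among them Best1, Gnat1, Sqle, Srebf2, Cdc20, Cdk1, Fos, Hspa8, Hsp90ab1, Mertk, Birc5 and Cenpe) were chosen after their values were seen. The members and the 35 lists were chosen with earlier results of these data known. Scaling to the visual cycle list, and the interferon-stimulated genes without 2 ZT0 mice, were added after seeing the data. Some genes of the lists are counted in them but not reported by name here. Coordinates are from GENCODE M21 (GRCm38). Promoter windows are from a RefSeq table of GRCm38.p6. Alternatives covered the pseudocount, filter, scaling, variance model, samples and covariates.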

Additional observations from a re-analysis of the deposited data

Results flagged for a closer look

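Dixon's test over 344 groups of 5 mice, of which chance marks about 1 in 20, set apart 19 single samples. Among clock and stress genes these were Npas2 at 5.26 FPKM and Csnk1d at 79.7 FPKM in ZT19 replicate 3, Rorb at 1.2 FPKM in ZT19 replicate 2, and Sgk1 at 194 FPKM in ZT0 replicate 1. Among genes of surface epithelium they were Ly6g6c at 14.2 and Tmprss11a at 62.4 FPKM, both in ZT0 replicate 5 and both the lowest of their group, and Krt5 at 261 FPKM in ZT19 replicate 3. Among muscle genes they were Myadml2 at 46.7 FPKM in ZT19 replicate 2 and Jsrp1 at 32.9 FPKM in ZT0 replicate 2. Transcripts near 0 gave Gm38079 at 0 FPKM in ZT0 replicate 1, Gm22426 at 0 FPKM in ZT0 replicate 4, Gm10238 at 0.634 FPKM in ZT19 replicate 2 and Kif15 at 3.63 FPKM in ZT19 replicate 5. The others were Ctsd at 1280 FPKM in ZT19 replicate 3, Slc16a8 at 280 FPKM in ZT19 replicate 4, Txn1 at 97.7 FPKM in ZT19 replicate 2, Ogn at 72.0 FPKM in ZT19 replicate 1, Hbb-bt at 93.1 FPKM in ZT0 replicate 2 and Lyz2 at 216 FPKM in ZT0 replicate 1.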

How the results depend on the processing

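The counts of 255 higher and 56 lower genes stayed within 1.5 times under both other pseudocounts, the 5 FPKM filter, 3 scalings, array weights, robust shrinkage, the animal number range and the myelin score. They were 143 and 16 with no filter, which fits more genes, 6 and 1 with all 30 samples, 94 and 12 with the eye as a term, 100 and 6 with the stroma score, 1 and 0 with the muscle score, 0 and 0 with the surface epithelium score, and 2378 and 14 scaled to the visual cycle list. The lower genes alone moved to 22 without the variance trend and to 119 with the rod score. Without 1 replicate each they were 97 to 280 and 6 to 76. The 2537 genes at an unadjusted p below 0.05 became 1087 with the surface epithelium score and 5563 with visual cycle scaling. The 1 call between ZT2 and ZT14 became 0 without ZT14 replicate 3, and the 46 of 56 lower genes that were lower at ZT2 became 33. The cause of these shifts was not tested. No paired analysis was possible because the replicate numbers are accession order and each mouse gave 1 sample.

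Of 4096 values under an alternative, for the genes chosen by the naming rule, 3376 kept direction and side of the threshold, 516 no longer passed, 119 passed in addition and 85 changed sign. With the surface epithelium score the log2 differences that changed sign among these genes were Col17a1 -0.92, Slc4a11 -0.24, Clock -0.80, Per2 0.63, Per3 0.34, Cry1 1.04, Cry2 0.23, Nr1d2 0.33, Rorb 2.26, Dbp 0.34, Tef 1.91, Hlf -1.31, Nfil3 -0.25, Bhlhe40 -1.44, Mt1 0.87, Fosl2 -0.15, Jun -0.64, Hspb1 -0.15, Hspa1a -0.52, Pax6 -1.33, Aldoa 0.26, Gapdh 0.10, Gpx4 0.51, Tyms -0.36, Rfc4 -2.24, Tfap2b -0.09, Ermn 1.37, Cdh19 0.44, Sox10 0.38, Notch3 -1.02, Hbb-bt 0.11, Lyz2 0.37 and C1qa 0.85. Scaled to the visual cycle list they were Per3 0.12, Cry1 0.02, Cry2 0.47, Nr1d2 0.09, Rorb 0.23, Dbp 0.16, Tef 0.12, Bhlhe41 0.08, Sgk1 0.29, Herpud1 0.16, Ctsd 0.19, Map1lc3a 0.04, Ctsb 0.34, Oca2 0.18, Acadvl 0.20, Aldoa 0.05, Gapdh 0.15, Sdhb 0.08, Gpx4 0.01, Slc6a9 0.01, Apoe 0.27, Sox10 0.20, Emcn 0.01 and Csf1r 0.04. With the muscle score they were Nr1d1 -0.19, Rora -0.17, Hlf -0.05, Ciart -1.10, Csnk1e -0.39, Srsf5 -0.07, Herpud1 0.39, Cnga1 -6.12, Guca1a -2.47, Tfap2b -0.09, Pecam1 0.01 and Eng 0.01. With the stroma score they were Nfil3 -0.13, Cnga1 -1.12 and Guca1a -0.14, with the eye as a term Rorb 0.04, and with quantile normalization Nfil3 -0.01. Without 1 replicate each, Rorb ranged from -0.72 to 0.17, Nfil3 from -0.14 to 0.20, Bhlhe40 from -0.05 to 0.27, Csnk1d from -0.03 to 0.20 and Cnga1 from -0.04 to 2.34. Of the other genes named, sign changed with the surface epithelium score for Aldh3a1 -0.20, Dsc3 -0.03, Anxa8 -0.41, Krt12 -3.11, Cdc20 -1.29, Fos -0.78, Sqle -0.18, Srebf2 -0.15, Hsp90ab1 -0.20, Rrh 0.74, Gnat1 5.36 and Best1 0.79, with visual cycle scaling for Mertk 0.08, Hspa8 0.27, Rdh5 0.02, Gnat1 0.07 and Best1 0.13, with the muscle score for Mertk 0.04, Fos -0.78 and Rbp4 1.23, with the eye as a term for Best1 0.09, and with 1 mouse left out for Gnat1, Best1 and Hsp90ab1.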

Other observations

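The gene families given here were chosen after their values were seen and are given without a test of the family. They share members with the lists above: Perp and Dsp with surface epithelium, Anxa2 with phagocytosis and Aqp1 with RPE channels. Some calls are therefore counted in both. Of 15 desmosome genes, which encode the junctions that rivet epithelial cells together, 11 passed in limma as higher at ZT0. Dsc3, a desmosomal cadherin, had 32.6 to 83.2 FPKM at ZT0 and 4.92 to 14.6 FPKM at ZT19 (log2 2.39 ± 0.31 SE, adjusted p = 0.00537). The median of the family was 1.93 as deposited and 0.01 with the surface epithelium score as a term, with which Dsc3 had -0.03. That score includes Perp and Dsp of this family, so part of the fall is built in. Of 6 Tmprss11 serine proteases, found in squamous epithelia, 4 passed as higher. Anxa8 and Anxa9 passed beside Anxa2 among 10 annexins, Aqp3 beside Aqp5 among 7 aquaporins, and 6 of 14 S100 calcium-binding protein genes. Of all tested genes 1.52% were called higher. Negative differences were found for 3 annexins, 3 aquaporins and 6 S100 genes, and the family medians were 0.36, 0.30 and 0.75. With the surface epithelium score as a term these medians were -0.24, 0.24 and 1.05. S100a6 had 1950 to 3200 FPKM at ZT0 and 947 to 1340 FPKM at ZT19 (log2 1.16 ± 0.17, adjusted p = 0.0093).

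Of 39 interferon-stimulated genes 37 had a positive difference, with a median of 0.99, and 6 passed in limma. Of all 16741 tested genes 8139 had a positive difference, with a median of -0.02, and 1.52% passed as higher. ZT0 replicates 1 and 2 stood apart, as the 2 highest of the 10 samples for 27 of the 39. The share of all tested genes with that pattern was not computed, so whether it is particular to this family is not known. Ifit1, for example, had 121, 107, 14.2, 27.1 and 31.8 FPKM at ZT0 and 9.48 to 18.1 FPKM at ZT19. With 1 mouse left out 1 to 4 genes passed, and without both of these mice 1 passed, 30 were positive and the median was 0.58. Irf7, the factor that amplifies the interferon response, had 54.0 to 183 FPKM at ZT0 and 11.1 to 43.5 FPKM at ZT19 (log2 1.89 ± 0.39, adjusted p = 0.0358). Oasl2, an antiviral gene of the oligoadenylate synthetase family, had 54.3 to 248 FPKM at ZT0 and 21.8 to 43.9 FPKM at ZT19 (adjusted p = 0.0472). Ifit1bl1, Ifi202b, Ifi204 and Oas3 also passed. With the surface epithelium score as a term the median of the 39 was 0.47, and scaled to the visual cycle list it was 1.65. Which cells carried these transcripts was not tested.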
